A study of Mus musculus with 2 samples.

Results

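The segment described here is the stretch of mouse chromosome 7 that reaches 20 Mb to either side of the Lamtor1 probe, from 89.06 to 129.06 Mb in the mm9 build. Its members are the 874 non-control probes that the scanner files place there, of 39429 on the array, and they carry 711 gene or transcript names. The remaining 2414 probes of chromosome 7 served as the comparison. The study set RNA from Lamtor1-deficient CD4+ T cells (KO) against RNA from wild-type CD4+ T cells (WT) of C57BL/6J mice, and its title concerns autoimmunity driven by such cells. Per the labels, CD4+CD62L+ naive cells were sorted magnetically from spleen and kept 5 days on plate-bound anti-CD3 with anti-CD28 and the cytokines IL-2 (50 ng/ml) and recombinant human TGFβ (1 ng/ml), in both genotypes. The extraction protocol speaks of naive cells, so that the RNA came from the cultured cells is a reading of the labels. How Lamtor1 was deleted, in which cells, from which donor strain the allele was bred and how many mice were pooled are not given in the sources used here.

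The data were 2 arrays with 2 colours, on which the same KO and WT extracts were hybridised with the dyes exchanged. Array 1 carried KO in Cy5 and array 2 carried KO in Cy3, and both bore the label of the same biological replicate. There was thus 1 RNA extract per genotype: no test was possible, no p-value is given, and the ± beside a mean is the technical SD of the 2 arrays. A log2 ratio is KO over WT, so that a negative value is a lower signal in KO. A level is a normalized log2 intensity in 1 RNA on 1 array, and levels of different probes are not comparable. A probe was counted as measured where KO stood well above background on array 1 and array 2, or WT did so. It was called lower or higher where each array showed a ratio of 2-fold or more in the same direction. The RNA was of whole cultures, so fewer cells of a type and less RNA per cell cannot be told apart.

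Lamtor1 encodes a membrane-anchored subunit of Ragulator, the complex that holds the Rag GTPases on the surface of the lysosome and so lets the kinase complex mTORC1 respond to amino acids. Genes that lie near each other on a chromosome are usually inherited together, which is why the neighbourhood of a targeted gene is looked at apart from the rest of the genome. The region around Lamtor1 is rich in gene families that arose by local duplication. It holds a large olfactory receptor cluster, the beta-globin cluster, and a cluster of TRIM genes, whose products are ubiquitin ligases known for roles in innate immunity.

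The probes on which the results below turn are shown by the middle of their sequence, bases 16 to 45 of 60, as the scanner files give them from 5′ to 3′. They are the Lamtor1 probe and the pairs of probes of the 4 genes whose own probes lay furthest apart. Positions are on chromosome 7 in mm9, and no base is set in capitals because no motif is meant.
Lamtor1, plus strand, chr7:109060334-109060393: tttgctctttttgtttttgtttgtcacccc
Map6, lower probe, plus strand, chr7:106485587-106485646: ctgtatagtcttgctggaatctaataaaat
Map6, other probe, plus strand, chr7:106468650-106468709: atggatcatgtagtgctcccctctcttggt
Trim12a, lower probe, minus strand, chr7:111448499-111448558: tcacttacatcaggtgggtaaagaccatgt
Trim12a, other probe, minus strand, chr7:111452759-111452818: ggcaagagaaggaagacattctcaacaacc
Trim34a, lower probe, plus strand, chr7:111410513-111410572: tgtcttgtacataatacatgggcctatagt
Trim34a, other probe, plus strand, chr7:111396137-111396196: caccattgttttagaatctgcctagccatc
Gm4759, lower probe, minus strand, chr7:113567921-113567980: tttcatgacaagcctcagtccagaagcaga
Gm4759, other probe, minus strand, chr7:113579334-113579393: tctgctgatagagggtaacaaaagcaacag
Which exon or untranslated region each probe falls in was not analysed here.

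Of the 874 probes, 281 were measured (32.15%), representing 220 genes, against 1133 of 2414 (46.93%) in the rest of the chromosome. Few probes of the receptor and globin clusters were measured. Of 228 olfactory receptor probes 3 were measured, of 15 vomeronasal receptor probes none, and of 7 beta-globin probes 1. TRIM probes were measured more often, 14 of 21. Among the 603 other probes of the segment, 263 were measured (43.62%), against 1122 of 2248 (49.91%) in the rest of the chromosome, so a smaller gap remained without the clusters. The measured probes of the segment had a median brightness, the mean log2 intensity of both channels, of 8.14 against 8.47 in the rest of the chromosome, and a median GC content of 41.7% against 45%. The part of brightness and GC content in the results below was not tested. Across the 281 measured probes Pearson's r between the log2 ratios of array 1 and array 2 was 0.933, against 0.936 over all 18568 measured probes; these values are across probes, which are not independent replicates. The median technical SD was 0.108 in the segment and 0.105 over the whole array. All 8 CD4 T cell markers looked at were measured, and Lyve1, Folr2 and Igsf6, which lie in the segment and are expressed by macrophages or other myeloid cells, were not.

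Signal in KO was lower around Lamtor1 than in the rest of chromosome 7, and by rings of distance the difference was largest within 3 Mb. Over the whole segment the median log2 ratio was −0.13, with −0.12 on array 1 and −0.15 on array 2. In the rest of the chromosome it was −0.02, with −0.02 and −0.04. On the other chromosomes it was −0.03. Within 3 Mb of the Lamtor1 probe, and with that probe left out, the median of 83 probes was −0.37 (−0.39 on array 1 and −0.36 on array 2). From 3 to 6 Mb the median of 60 probes was −0.05, from 6 to 10 Mb that of 36 probes was −0.04, and from 10 to 20 Mb that of 101 probes was −0.02. Each of these outer rings thus lay within 0.04 of the rest of the chromosome. A ring pools both sides of Lamtor1, which can differ. In the 3 to 6 Mb ring, the 2 Mb from 103.06 Mb had a median of 0.07 and those from 113.06 Mb −0.39. Within 1 Mb the median was −0.32 over 36 probes. The 3 Mb distance was chosen with earlier results of these data known, so the contrast is a description. The value moved with the processing: it was −0.02 when dim probes were not filtered out, and −0.71 with median centring in place of loess, which put the median of all probes at −0.35.

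**Figure D1:**
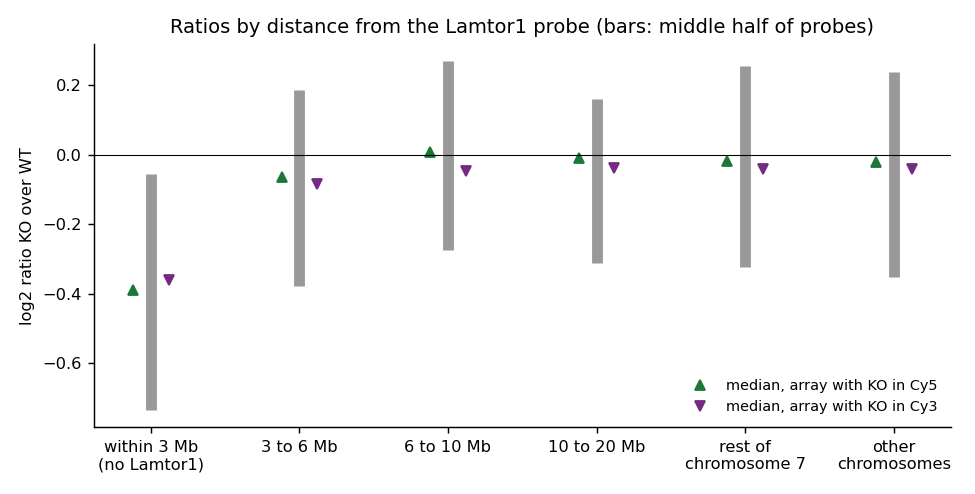
Median log2 ratio KO over WT (vertical axis) on each array, by distance of the probe from the Lamtor1 probe, with the rest of chromosome 7 and the other chromosomes; triangles are the 2 arrays and grey bars run from the lower to the upper quartile of the probes. The innermost ring sits at −0.39 and −0.36, while the outer rings and both comparison groups lie near 0.

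The share of probes called lower was also highest within 3 Mb, but it did not fall evenly with distance. In the segment 23 probes were called lower (percent called 8.19%) and 4 higher (1.42%). In the rest of chromosome 7 these were 66 (5.83%) and 31 (2.74%), and over all measured probes of the array 1174 (6.32%) and 432 (2.33%). The share over the whole segment thus stood little above the background. At 1.5-fold on both arrays, 50 probes of the segment were lower (17.8%) and 8 higher (2.85%), against 12.4% and 6.27% in the rest of the chromosome. Within 3 Mb, 13 of the 83 probes were called lower (15.7%) and none higher. Only 1 of 60 was called lower from 3 to 6 Mb (1.67%), with 3 of 36 from 6 to 10 Mb (8.33%) and 5 of 101 from 10 to 20 Mb (4.95%). The shift within 3 Mb was not made by the called probes alone: 71.1% of its probes lay below 0 on both arrays, against 43.9% in the rest of the chromosome, and 14.5% lay above 0 on both, against 38.0%. A probe that was measured through WT alone will tend to be lower in KO, so the counts were also taken over the 233 probes well above background in both RNAs on both arrays. Of these 17 were called lower (7.30%), against 5.98% in the rest of the chromosome, and the median within 3 Mb was −0.36. Counted by gene, 45 of the 63 genes within 3 Mb lay below 0 on both arrays and 11 above. Over all 14869 genes 6592 lay below 0 on both arrays and 5745 above. The lower and the higher side of the Lamtor1 probe had like medians, −0.13 over 113 probes and −0.10 over 167.

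**Figure D2:**
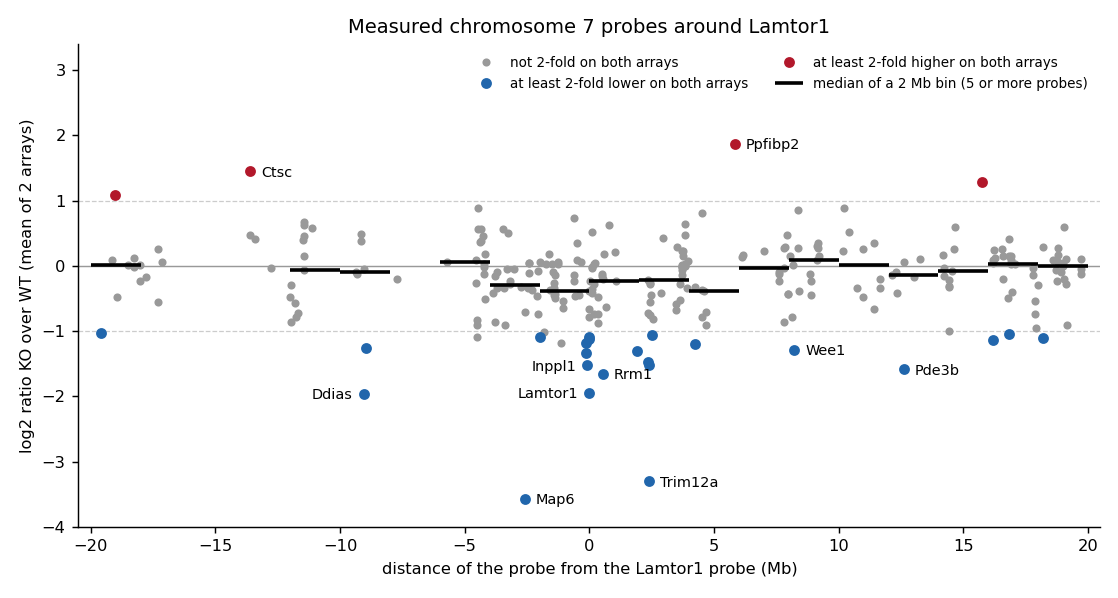
Mean log2 ratio KO over WT of each of the 281 measured probes (points) against the distance of the probe from the Lamtor1 probe in Mb, with the median of each 2 Mb bin as a black line. Blue points are the 23 probes at least 2-fold lower on both arrays and red points the 4 at least 2-fold higher; 14 of the 23, Lamtor1 included, lie within 3 Mb of its probe.

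In 2 Mb bins along the segment, 16 bins held at least 5 measured probes, 3 held fewer and 1 held none. The 16 medians ran from −0.39 to 0.08. From 89.06 Mb upward, the first bin had a median of 0.01 over 9 probes, the bins from 97.06 and 99.06 Mb had −0.06 over 13 and −0.09 over 7, and the bin from 103.06 Mb had 0.07 over 17. These bins lay on both sides of 0. The next 5 bins were all at or below −0.2. The bin from 105.06 Mb stood at −0.30 (24 probes; −0.16 on array 1 and −0.35 on array 2) and the bin from 107.06 Mb at −0.38 (34 probes; −0.42 and −0.30). The bin that begins at Lamtor1, from 109.06 Mb, had −0.24 (25 probes; −0.36 and −0.32), and the bin from 111.06 Mb had −0.21 (35 probes; −0.17 and −0.19). The bin from 113.06 Mb, the lowest of the segment, had −0.39 over only 9 probes (−0.48 and −0.38). All 5 were below 0 on both arrays. The run of 5 depended on the processing. The bin from 111.06 Mb had −0.02 both with the stricter filter on dim probes described above and without the olfactory receptor, TRIM and globin genes. The other 4 stayed below −0.2 in both. On array 1 alone the bins from 105.06 and 111.06 Mb did not reach −0.2. Without a filter on dim probes the 5 medians lay between −0.09 and −0.01. From 115.06 Mb on, the medians returned to between −0.14 and 0.08: −0.03, 0.08, 0.01, −0.14, −0.09, 0.02 and −0.00, over 7 to 24 probes each.

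In the rest of chromosome 7, 42 bins held at least 5 measured probes and their medians ran from −0.50 to 0.66. Low bins were thus not confined to the segment: 6 of the 42 were at or below −0.2, and the lowest of these, from 143.06 Mb, stood at −0.50 over 7 probes. In this placing of the bins none of these 6 was next to another, whereas the 5 of the segment were adjacent. The contrast is a description that hangs on the limit of −0.2. The bin from 111.06 Mb only just met it, at −0.21, and on neither array alone. Among the 58 bins of the chromosome, ordered from the lowest median up, those of the segment from 113.06 and 107.06 Mb came at places 4 and 5, and those from 105.06, 109.06 and 111.06 Mb at places 8, 10 and 11. The 5 bins together, which were picked after their values were seen, had a median of −0.28 over 127 probes. Of these 15 were called lower (11.8%) and 1 higher (0.79%). The other 154 probes of the segment had a median of −0.01 with 8 lower (5.19%) and 3 higher (1.95%). Over all measured probes of the array 6.32% were called lower and 2.33% higher.

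When the bins were shifted by 1 Mb, the low stretch narrowed and adjacent low bins were also seen elsewhere. The bins from 106.06, 108.06 and 110.06 Mb had medians of −0.34 (30 probes), −0.36 (37 probes) and −0.55 (17 probes), and on each array the 3 medians were at or below −0.31. They held 14 of the 23 probes called lower. These bins cover the same 6 Mb as the innermost ring above and are no second line of evidence. In the rest of the chromosome 2 pairs of adjacent shifted bins were at or below −0.2: those from 54.06 and 56.06 Mb, at −0.27 (11 probes) and −0.41 (6 probes), and those from 142.06 and 144.06 Mb, at −1.0 (6 probes) and −0.41 (8 probes). The bins to either side of the low stretch of the segment, from 104.06 and 112.06 Mb, were at −0.09 (29 probes) and −0.02 (29 probes). At the lower bound of the segment the nearest measured probe inside, Sh3gl3, was not well above background in KO on either array and at least 2.05-fold lower there, and the nearest outside, an unnamed transcript, was at −0.26 ± 0.16. At the upper bound Usp31 inside was at −0.04 ± 0.05 and Cog7 outside at 0.00 ± 0.24.

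**Figure D3:**
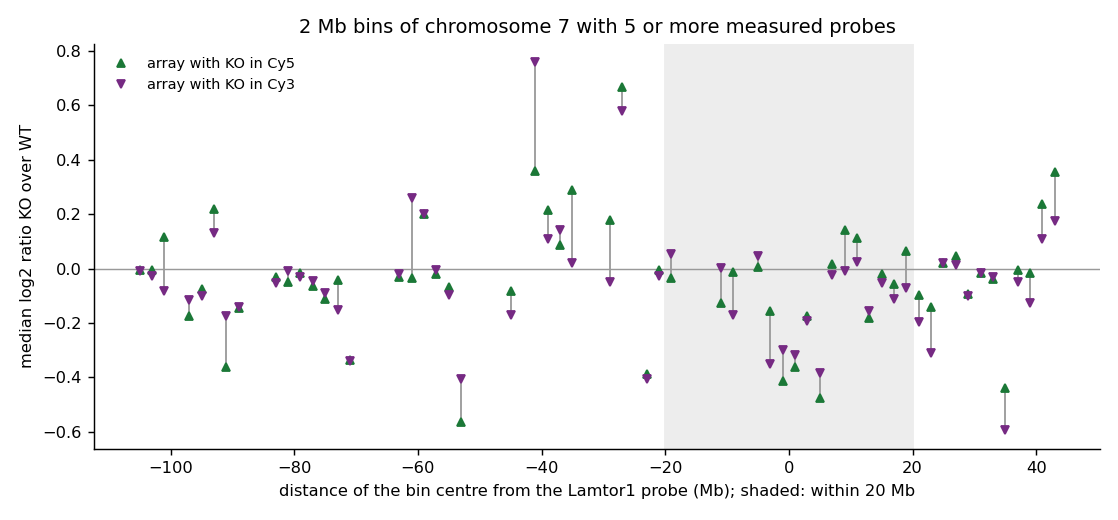
Median log2 ratio KO over WT of each 2 Mb bin of chromosome 7 with at least 5 measured probes (58 bins), on the array with KO in Cy5 and the array with KO in Cy3, against the distance of the bin centre from the Lamtor1 probe in Mb; the shaded stretch is the segment. The 5 adjacent low bins from 105.06 to 115.06 Mb stand side by side near distance 0, while bins as low elsewhere stand alone in this placing of the bins, though not when the bins are shifted by 1 Mb.

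Lamtor1 itself had a KO level of 8.08 on array 1 and 8.14 on array 2, and a WT level of 10.04 and 10.06. The log2 ratio was −1.95 ± 0.03, a 3.86-fold difference. The probe remained well above background in KO on both arrays. Whether the probe lies in the deleted part of the gene is not given, so its value is no check of the labels.

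The immediate neighbours of Lamtor1 included several of the lowest genes of the segment. Besides Lamtor1, 26 measured genes had a probe within 1 Mb, of which 16 lay below 0 on both arrays, 6 above 0 on both, and 4 on different sides. The share below 0 on both arrays was 61.5%, against 44.3% of all genes on the array. The 4 called lower (15.4%, against 6.87% of all genes) were Anapc15, Inppl1, Clpb and Rrm1. Anapc15, a small subunit of the anaphase-promoting complex, is the nearest of them, with its probe 0.01 Mb before that of Lamtor1. Its KO levels were 9.46 and 9.33 against 10.47 and 10.52 in WT, a log2 ratio of −1.10 ± 0.13, and its other 2 measured probes gave −1.12 and −0.66. Inppl1, the lipid phosphatase SHIP2, lies 0.09 Mb before Lamtor1. Its KO levels were 9.64 and 9.44 against 11.13 and 10.99, a log2 ratio of −1.52 ± 0.04. Clpb, a mitochondrial protein disaggregase, lies 0.12 Mb before. Its KO levels were 8.23 and 8.27 against 9.37 and 9.49 in WT, a log2 ratio of −1.18 ± 0.06, and a second probe that shares 39 bases with the first gave −1.33. In each of these genes the KO and WT levels did not overlap, which the 2-fold rule on both arrays all but fixes.

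Rrm1, the large subunit of ribonucleotide reductase, which makes the building blocks of DNA, lies 0.56 Mb beyond Lamtor1 and was lower by more than any other gene within 1 Mb save Lamtor1. Its KO levels were 9.51 and 9.49 against 11.18 and 11.12 in WT, a log2 ratio of −1.65 ± 0.03 or 3.14-fold.

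Genes that did not reach 2-fold lay between these neighbours. Lrrc51, a leucine-rich repeat protein whose probe on the opposite strand lies 0.001 Mb beyond that of Lamtor1, had −0.78 ± 0.22, with −0.93 on array 1 and −0.62 on array 2. Its second probe gave −0.23. Pgap2, which remodels the lipid anchor of surface proteins, had −0.87 ± 0.05, and its second probe, sharing 42 bases, −0.73. Trim21, a cytosolic Fc receptor and ubiquitin ligase, had −0.63 ± 0.15, and Rhog, a small GTPase, had −0.48 ± 0.18. Stard10, a lipid transfer protein, had −0.46 ± 0.06, Pde2a, a cyclic nucleotide phosphodiesterase, −0.44 ± 0.37, and Rnf121, a membrane-bound ubiquitin ligase, −0.42 ± 0.09. All of these were below 0 on both arrays, with Pde2a at −0.18 and −0.71.

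Others near Lamtor1 were above 0 or closer to it. Numa1, which organises spindle poles, lies 0.10 Mb beyond Lamtor1 and had 0.52 ± 0.17. Fchsd2, a membrane-bending adaptor of the actin cytoskeleton, had 0.74 ± 0.33, Trim68 0.62 ± 0.05, and Arap1, a GTPase-activating protein, 0.35 ± 0.23. The nuclear pore gene Nup98 stood at 0.05 ± 0.02, Stim1, the calcium sensor of the endoplasmic reticulum, at −0.15 ± 0.30, Atg16l2 at −0.13 ± 0.16 and Il18bp, which binds the cytokine IL-18, at −0.04 ± 0.11. Of the rest within 1 Mb, Olfr544 had 0.18 ± 0.08, Gm7027 0.05 ± 0.15, Xntrpc 0.03 ± 0.12 and LOC100045432 −0.21 ± 0.16. The second probe of Xntrpc lay lower, at −0.74. The other 3 were unnamed transcripts, between −0.39 and −0.28. Genes side by side could differ in direction: Numa1 and the brighter probe of Rnf121, within 0.01 Mb of each other, were on opposite sides of 0 on both arrays, though the second Rnf121 probe was at −0.02.

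Over the whole segment, taking the brightest probe of each gene, 19 of 220 genes were called lower (8.64%) and 4 higher (1.82%), against 6.46% and 2.74% in the rest of the chromosome and 6.87% and 2.45% of all genes on the array. The lowest was Map6, a microtubule-stabilising protein, 2.57 Mb before Lamtor1. Its KO levels were 6.73 and 7.03 against 10.44 and 10.45 in WT, and the log2 ratio was −3.57 ± 0.20. KO stood well above background on 1 of the arrays. Trim12a, 2.39 Mb beyond Lamtor1, came next, with KO at 6.55 and 6.49 against 9.67 and 9.97 in WT, a log2 ratio of −3.30 ± 0.25; KO again stood well above background on 1 array. For comparison, the lowest genes in the rest of chromosome 7 were Atf5 at −3.03, Gmfg at −2.93 and Lsr at −2.55. None was as low as these single probes of Map6 and Trim12a. The other measured probe of Map6 was at −0.71 and that of Trim12a at −1.53. On other chromosomes the lowest measured probe was at −5.14.

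**Figure D4:**
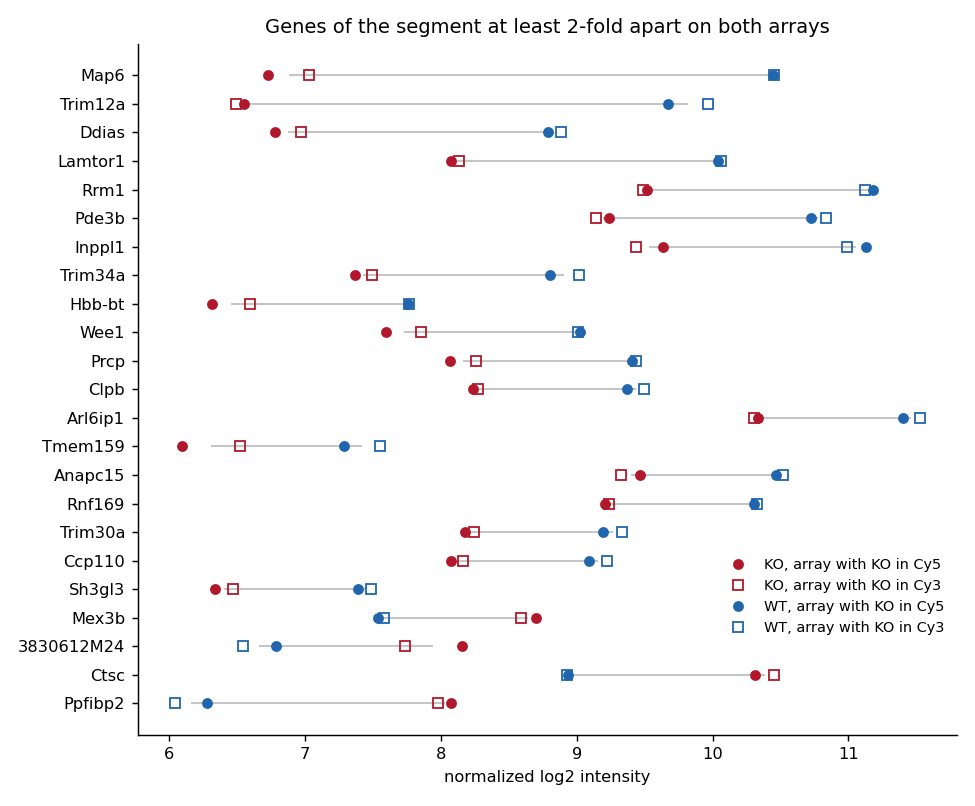
Normalized log2 intensity (horizontal axis) in KO (red) and WT (blue) on each array (filled, KO in Cy5; open, KO in Cy3) for the 23 genes of the segment at least 2-fold apart on both arrays, 1 probe per gene; grey lines join the KO and WT means. That KO and WT points stand apart is all but fixed by the 2-fold rule that picked these genes. In 19 genes KO is on the left.

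Genes of DNA replication, repair and mitosis were split. Of 13 such genes listed in the segment 12 were measured, 3 were called lower, none higher, and 6 lay below 0 and 6 above 0 on both arrays. Over all genes of the array 6.87% were called lower, 2.45% higher, and 44.3% lay below 0 on both arrays. The median of the 12 was −0.07, against −0.03 over all measured probes. Rrm1 is described above. Wee1, the kinase that holds back entry into mitosis, lies 8.23 Mb beyond Lamtor1, with KO levels of 7.60 and 7.86 against 9.03 and 9.01, a log2 ratio of −1.29 ± 0.19. Ccp110, which caps centrioles, had −1.04 ± 0.03. Pold3, a subunit of DNA polymerase delta, lay just outside the 2-fold rule, with −1.11 on array 1 and −0.92 on array 2. Ilk, a kinase linked to integrins, was at 0.48 ± 0.08 and Smg1, a kinase of RNA surveillance, at 0.25 ± 0.04. Ddias, an inhibitor of apoptosis after DNA damage that was not in the list, lies 9.05 Mb before Lamtor1 and had KO levels of 6.78 and 6.97 against 8.79 and 8.88 in WT. Its log2 ratio was −1.96 ± 0.06, as low as that of Lamtor1 within the technical SD.

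TRIM genes were the group with the lowest median besides the single measured globin and Lamtor1. Of 13 listed genes in the segment 9 were measured, and 3 were called lower and none higher. They had a median of −0.76, and 7 of the 9 lay below 0 on both arrays, beside 6.87% of all genes called lower and 44.3% below 0. This median ran from −1.18 to −0.72 over the other normalizations and filters and the single arrays. Each of these runs took 1 probe per gene, so the range does not cover the choice of probe. Most of the 9 lie within 3 Mb of Lamtor1, where 71.4% of genes lay below 0 on both arrays. The count of 7 is thus near the share of that neighbourhood. Under the stricter filter on dim probes 7 TRIM genes were left, with 2 called lower. Trim34a had KO levels of 7.36 and 7.49 against 8.80 and 9.02 in WT, a log2 ratio of −1.48 ± 0.06. Trim30a, known as a brake on Toll-like receptor signalling, had −1.05 ± 0.06. Trim12c, a close copy of Trim12a, had −0.76 ± 0.30, Trim30d −0.82 ± 0.14, Trim21 −0.63 ± 0.15 and Trim68 0.62 ± 0.05. The Trim12c value, which is the median of the group, is that of its lowest probe, and its highest was at −0.26. TRIM genes of the cluster are near copies of each other, and their probes may share target RNA. No stretch of 20 bases of any of the 27 called probes occurred in a probe of another name on the array, but binding to transcripts was not checked.

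The beta-globin cluster had 1 measured gene of 5. Hbb-bt, an adult beta-globin, had KO levels of 6.31 and 6.59, not well above background on either array, against 7.76 and 7.77 in WT, which makes it at least 2.47-fold lower. The scanner files name its probe Hbb-b1, and adult beta-globins are near-identical, so which copy it measures is uncertain. The summed level of the 2 erythroid markers with a probe was 7.21 and 7.40 in KO and 8.20 and 8.22 in WT, with Hbb-b2 not measured; the part of red cells in this value was not tested.

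Genes of lysosomes, endosomes and vesicle transport, the compartment in which Lamtor1 acts, were listed 17 times in the segment. Of the 16 measured, 2 were called lower and 1 higher, and the median was −0.14; with 6.87% and 2.45% of all genes called, these counts are near the background. Prcp, a lysosomal carboxypeptidase, had KO levels of 8.07 and 8.26 against 9.40 and 9.44 in WT, a log2 ratio of −1.26 ± 0.11. Arl6ip1, which shapes the endoplasmic reticulum, had KO levels of 10.34 and 10.30 against 11.40 and 11.53, a log2 ratio of −1.14 ± 0.12. Ctsc, the lysosomal protease cathepsin C that activates granzymes, ran the other way, with KO levels of 10.31 and 10.46 against 8.94 and 8.93, a log2 ratio of 1.45 ± 0.10. The 4 brightest that did not reach 2-fold were Picalm, a clathrin adaptor, at −0.72 ± 0.26, Smpd1, acid sphingomyelinase, at −0.28 ± 0.12, Atg16l2 at −0.13 ± 0.16 and the autophagy gene Uvrag at −0.06 ± 0.05.

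Lymphocyte signalling genes numbered 21, of which 14 were measured, with 2 called lower, none higher and a median of −0.15, beside 6.87% and 2.45% of all genes. Pde3b, which breaks down cyclic AMP, lies 12.62 Mb beyond Lamtor1 and had KO levels of 9.24 and 9.14 against 10.72 and 10.83, a log2 ratio of −1.59 ± 0.14. Inppl1 is the other. The 4 brightest of the rest, Rhog, Arap1, Ilk and Stim1, are given above and lay between −0.48 and 0.48. The bulk of the extracts differed in markers of other cells as well: the summed level of the 5 CD8 T and NK markers was 10.58 and 10.49 in KO against 9.47 and 9.51 in WT, and that of the 4 myeloid markers 13.26 and 13.09 against 12.52 and 12.46. A summed level is carried by its strongest probes, and members of a list differed: Klrd1 had a log2 ratio of 1.78 and Cd8b1 −0.55, and Itgam, at 13.18 in KO on array 1, made nearly all of the myeloid sum, with Cd68 not measured. For the 8 CD4 T cell markers it was 15.65 and 15.56 against 16.18 and 16.16, with Cd4 at −1.18 and Foxp3 at 1.67. The part of other cells in the values of the segment was not tested.

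Of 12 mitochondrial genes listed 11 were measured. Clpb alone was called lower, near the background of 6.87% of all genes. Of the 11, 9 lay below 0 on both arrays, against 44.3% of all genes and 52.5% of those of the segment, and the median was −0.23. Ndufc2, a complex I subunit, had −0.83 ± 0.23, Uqcrc2, a complex III subunit, −0.23 ± 0.08, Timm10b, of the import machinery, −0.02 ± 0.01 and the mitochondrial ribosome gene Mrpl48 −0.14 ± 0.00.

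Genes of lipid, nucleotide and sugar metabolism held no call, beside 6.87% of all genes called lower and 2.45% higher. Of 20 listed 12 were measured, 10 lay below 0 on both arrays, against 44.3% of all genes and 52.5% of those of the segment, and the median was −0.34. The 4 brightest were Smpd1, Pgap2, Gde1, a glycerophosphodiester phosphodiesterase, at −0.50 ± 0.11, and Alg8, a glucosyltransferase of N-glycan assembly, at −1.08 ± 0.18. Alg8 missed the rule with −0.96 on array 1 and −1.21 on array 2.

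Taken by the brightest probe of each gene, genes of the ribosome and of translation were spread about 0. Of 14 listed 13 were measured, with none called, 4 below and 5 above 0 on both arrays and a median of −0.00. Over all 14869 genes 6.87% were called lower and 2.45% higher, and 6592 lay below 0 and 5745 above 0 on both arrays. No call among so few genes is thus near the background. The ribosomal protein genes Rps13, Rpl27a, Rps15a and Rps3 had −0.21 ± 0.37, −0.24 ± 0.09, 0.09 ± 0.42 and 0.05 ± 0.02. The second measured probe of Rps13 lay lower, at −0.999. The further probes of Rpl27a, Rps15a and Rps3 lay between −0.24 and 0.05. Genes of transcription and chromatin gave a like picture: of 12 listed 9 were measured, none was called, again near the background, and the median was 0.00. Taf10, a subunit of TFIID, had 0.00 ± 0.05, the Polycomb gene Eed −0.86 ± 0.07, the clock gene Arntl 0.35 ± 0.00 and Thap12 −0.27 ± 0.17. These lists were drawn up with earlier results known, so their counts describe the segment and support no theme.

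The 4 genes higher in KO (1.82% of the segment, against 2.45% of all genes) lay 5.83 to 19.04 Mb from Lamtor1. That count is near the background, and so few genes say nothing about where higher genes lie. Ppfibp2, a liprin scaffold protein 5.83 Mb beyond Lamtor1, had KO levels of 8.07 and 7.98 against 6.28 and 6.04 in WT. Its WT signal was not well above background on either array, so it was at least 3.58-fold higher. Ctsc lies 13.60 Mb before. The transcript 3830612M24, 15.76 Mb beyond, had KO levels of 8.15 and 7.73 against 6.79 and 6.54 and a log2 ratio of 1.28 ± 0.12. Mex3b, an RNA-binding protein 19.04 Mb before, had 8.70 and 8.59 against 7.54 and 7.58, a log2 ratio of 1.08 ± 0.11. The highest genes of the rest of the chromosome, Trpm1 at 3.67 and Ifitm1 at 3.44, went further. Of the 15 lowest genes, Tmem159, a lipid droplet protein 18.20 Mb beyond Lamtor1, is the one not yet described, with KO levels of 6.09 and 6.52, not well above background, against 7.28 and 7.55, at least 2.16-fold lower.

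In a few genes of the segment the probes of 1 gene lay far apart. Of 50 genes with several measured probes, 4 had probes over 1 apart on the log2 scale in the same order on both arrays (8%), against 4 of 188 (2.13%) elsewhere on chromosome 7. The median gap between the lowest and the highest probe of a gene was 0.195 against 0.147. Each share rests on 4 genes. With the probe required to be well above background in both RNAs, none of 39 genes of the segment and 1 of 157 of the rest had such probes, so in each of the 4 genes at least 1 probe was not well above background in both RNAs on both arrays.

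The sequences printed above show where these 4 pairs lie. For Map6 the probe at −3.57 and the one at −0.71 were designed on different transcripts. Whether they measure the same RNA was not tested. On array 1 the 2 Map6 probes had −3.71 and −0.64, and on array 2 −3.42 and −0.79. For Trim12a the lower probe had −3.13 and −3.48 on the arrays and the other −1.62 and −1.43, and both were called lower. For Trim34a the lower probe, well above background in both RNAs on both arrays, had −1.44 and −1.53. The other, designed nearer the start of the same transcript, had −0.18 and −0.24. The Gm4759 probes, both of 1 non-coding transcript, differed in sign: −0.48 and −0.27 for the lower, 0.58 and 1.05 for the other. Gvin1, an interferon-inducible GTPase, came next, with a probe at −1.20 ± 0.01 and another at −0.33, but the gap on the weaker array was 0.74. Where probes overlapped in sequence they lay closer: the 6 overlapping pairs of the segment shared 24 to 54 bases and differed by 0.01 to 0.48, the widest being Crebzf.

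**Figure D5:**
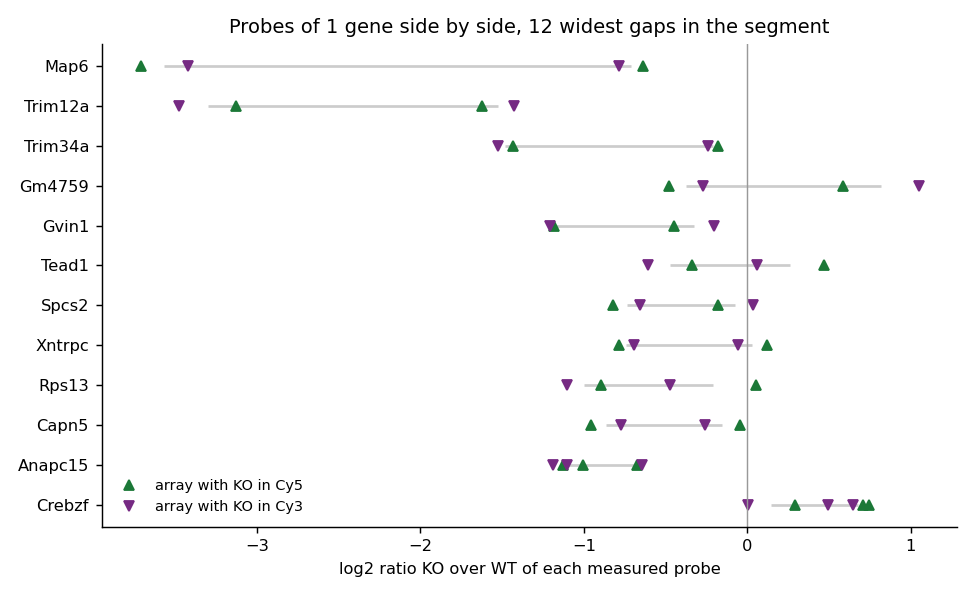
Log2 ratio KO over WT of every measured probe, on each array, for the 12 genes of the segment whose probes lie furthest apart; triangles are the 2 arrays and grey lines join the means of the lowest and the highest probe. In Map6, Trim12a, Trim34a and Gm4759 the gap exceeds 1 on both arrays.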

How the data were processed

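The deposited scanner files give, per the file headers, uncorrected mean intensity and local background per spot and channel. The scanning software, Feature Extraction, is version 10.7.3.1 in those headers but 10.5.1.1 in the submitters' processing notes. Per the labels, 400 ng cRNA was hybridised at 65 °C for 17 h. The deposited series matrix holds log10 ratios equal to the software's own for all 44397 spots per array. Intensities were background-corrected by normexp (offset 50, which shrinks ratios of dim probes) and loess-normalized within each array, controls at weight 0, with limma 3.58.1 in R 4.3.3. Outlier spots (206 and 214) were left out; none was saturated. Spots of a probe were averaged and ratios turned to KO over WT. Levels were also Aquantile-normalized between arrays. An "at least" fold sets the brighter RNA against the higher of the dim probe's signal and the lowest signal well above background. The code was tested on simulated data. Summaries and plots used Python 3.11.15, numpy 2.4.6, pandas 2.3.3 and matplotlib 3.10.9. Of 874 probes, 718 were named through RefSeq's GRCm38.p6 gene table, for names only. Named were Lamtor1, the 15 lowest and up to 10 highest called genes (brightest probe each), every measured gene within 1 Mb, called and the 4 brightest other listed genes, genes with disagreeing probes, and the 3 extremes each way of the rest of chromosome 7; Sh3gl3, Usp31, Cog7, Gvin1 and Crebzf were added after their values were seen. Members and lists were chosen with earlier results of these data known.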

Additional observations from a re-analysis of the deposited data

How the results depend on the processing

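No paired analysis was possible because both arrays carry the same pair of extracts. The segment median (−0.129), its difference from the rest of chromosome 7 (−0.114) and the median within 3 Mb (−0.366) stayed below 0 under every alternative run, but their sizes moved. With the software's processed signals, and equally with the series matrix, they were −0.088, −0.140 and −0.509, with 39 probes lower and 10 higher in place of 23 and 4. With a normexp offset of 1 the difference was −0.132, the inner median −0.460 and 7 probes were higher. Without background subtraction the difference was −0.123. Median centring in place of loess moved the median of all probes to −0.35; the 3 values were then −0.455, −0.136 and −0.706, with 15 probes lower and 1 higher, and 12 of the 19 lower genes and 1 of the 4 higher genes kept their call. Without a filter on dim probes all 874 probes counted, 228 of them olfactory receptor probes, and the 3 values were −0.012, −0.016 and −0.018. With the stricter filter the segment median was −0.091, the difference −0.093 and 0 genes had disagreeing probes. Without olfactory receptor, TRIM and globin genes the values were −0.100, −0.085 and −0.344, with 2 such genes. With 1 probe per gene the difference was −0.104, as it was against the other chromosomes. A 1.5-fold rule gave 50 lower (17.8%) and 8 higher. On single arrays the difference ran from −0.105 to −0.100 and the inner median from −0.389 to −0.360, with 26 to 28 lower, 5 to 6 higher and 5 genes with disagreeing probes. Leaving out the replication and mitosis genes, an alternative added after seeing the data, left 20 lower. Precision is limited by 2 arrays of 1 pair of extracts, and by dim signals: 233 of the 281 probes were well above background in both RNAs on both arrays.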
